A study of Mus musculus with 37 samples.

Results

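Cxcl1-high and Cxcl1-low cells were 2 sides of 1 set of single macrophages from obese fat, chosen by the FPKM of the chemokine gene Cxcl1. FPKM counts fragments per length of transcript and per number of fragments mapped. Of the 37 cells in the series, 12 had Cxcl1 at 100 FPKM or more and formed the Cxcl1-high side, and 20 had Cxcl1 below 10 FPKM and formed the Cxcl1-low side. Another 3 cells lay between and were left out, as were cells 7 and 27, which held fibroblast genes. Because the sides were selected on Cxcl1, the difference in Cxcl1 itself is a description of the choice.

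Every cell came from male C57BL/6J mice. They ate a high-fat diet, with fat giving 60%, carbohydrate 20% and protein 20% of the energy. Epididymal white adipose tissue (eWAT) was digested with collagenase for 30 min, and cells labelled adipose tissue macrophage (ATM) were sorted and caught singly on a Fluidigm C1, a microfluidic instrument. The labels give neither an animal nor an age for a cell, and the sources used here do not describe the sort gate. No lean or untreated cells were used here. All cells therefore count as 1 sample, cells are not replicates, and no p-value was computed. Standard deviations below are between cells, and a cell's number, between 0 and 36, is the one in its title.

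Cxcl1 and Cxcl2 are neighbouring genes for secreted chemokines that draw neutrophils through the receptor Cxcr2, whereas Ccl2 draws monocytes through Ccr2. In macrophages these genes are known to be switched on within a short time of a danger signal, such as one sensed by Toll-like receptors with their co-receptor Cd14, through the transcription factor NF-kB. NF-kB also switches on genes that act back on it, among them Nfkbia, for an inhibitor, and Nfkbiz, for a nuclear co-factor. A parallel wave of immediate early genes, which includes Fos and Fosb of the AP-1 factor, answers growth factors, stress and tissue handling as well.

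The sequences just before the starts of Cxcl1, Cxcl2 and Nfkbia are shown first, because these genes stood high together in the same cells. They are the 250 bases before each gene's start, from RefSeq on GRCm38.p6, which is a later build than the mm9 of the deposited values. They read 5′ to 3′ on the gene's own strand, and capitals mark matches on either strand of the short NF-kB motif GGGANNTNC. The windows are chr5:90890995-90891244 on the plus strand for Cxcl1, chr5:90903649-90903898 on the plus strand for Cxcl2 and chr12:55492648-55492897 on the minus strand for Nfkbia.
Cxcl1: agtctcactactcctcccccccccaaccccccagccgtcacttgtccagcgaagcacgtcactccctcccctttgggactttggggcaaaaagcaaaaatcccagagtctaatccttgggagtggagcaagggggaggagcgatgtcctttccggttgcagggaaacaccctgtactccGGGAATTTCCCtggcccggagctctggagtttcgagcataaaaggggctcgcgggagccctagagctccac
Cxcl2: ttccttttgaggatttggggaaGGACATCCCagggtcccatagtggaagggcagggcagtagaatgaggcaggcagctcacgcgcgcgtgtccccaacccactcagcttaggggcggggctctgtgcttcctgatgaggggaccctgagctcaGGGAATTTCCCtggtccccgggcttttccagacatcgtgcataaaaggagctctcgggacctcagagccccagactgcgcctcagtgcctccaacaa
Nfkbia: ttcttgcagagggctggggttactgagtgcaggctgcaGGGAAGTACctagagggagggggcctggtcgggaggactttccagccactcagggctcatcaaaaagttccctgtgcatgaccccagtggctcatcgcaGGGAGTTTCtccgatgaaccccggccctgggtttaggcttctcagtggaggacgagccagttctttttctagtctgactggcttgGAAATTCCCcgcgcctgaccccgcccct
The Cxcl1 window held 2 matches that overlap, and the Cxcl2 and Nfkbia windows held 3 each, with 2 of those of Cxcl2 overlapping. The Cxcl1 and Cxcl2 windows, 12404 bases apart, shared the run GGGAATTTCCCTGG of 14 bases. It begins at -71 from the start of Cxcl1 and at -97 from the start of Cxcl2, counted with -1 as the last base before the start. Of 18 genes named here and looked up, 11 were in the promoter table, and 5 of those 11 held a match, as did 12.4% of all 27025 promoters in the table. The AP-1 motif TGANTCA was in 0 of the 11, in 6.87% of all promoters and in 3.93% of those of measured genes, and the NF-kB motif was in 12.8% of the latter. The 18 genes were chosen for their values, and a match describes letters and no binding.

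Cxcl1 separated the sides by a wide gap. In the Cxcl1-high cells it ran from 103 to 1770 FPKM with a median of 577, and in the Cxcl1-low cells from 0.136 to 2.24 FPKM with a median of 0.331. The members nearest the upper limit were cell 25 at 103 FPKM just inside and cell 14 at 82.4 FPKM just outside. The next cells down were cell 36 at 59.9 FPKM, cell 24 at 14.1 FPKM and, as the highest Cxcl1-low cell, cell 33 at 2.24 FPKM. No cell was listed at 0. The highest Cxcl1-low value was 0.338% of the mean of the Cxcl1-high cells.

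The sides also differed in how many genes were seen, which touches every comparison. Cxcl1-high cells had a median of 1700.5 genes at 1 FPKM or more, from 1224 to 2464, and Cxcl1-low cells 2039.5, from 1401 to 2769. The 50 most abundant genes took a median of 51.9% of the FPKM in Cxcl1-high cells and 47.0% in Cxcl1-low cells. The summed FPKM of a cell had a median of 311041 in Cxcl1-high and 319412 in Cxcl1-low cells. It was 1115906 in cell 2 and 1217865 in cell 26, both Cxcl1-high, against at most 587561 in a Cxcl1-low cell. Cell 2 holds the quoted maxima of Cxcl1, Cxcl2, Cd14 and Fosb, and cell 26 the Cxcl1-high maxima of Nfkbiz, Dusp3 and Retnla. Values were used as deposited, so those maxima stand on a larger scale. The number of fragments behind a value is unknown, since the table holds no counts. Judged by the size of its smallest values, 3 Cxcl1-high cells (2, 17 and 26) and 1 Cxcl1-low cell (15) were shallow. Of the 12 Cxcl1-high cells 7 were numbered 20 or above, against 7 of the 20 Cxcl1-low cells. A division of the libraries at that number is putative and not in the labels. Differences by cell number below set 5 against 13 cells (0 to 19) and 7 against 7 (20 to 36). The first set includes the shallow cells 2, 17 and 15. Such small sets can show neither a batch nor that a difference is stable.

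**Figure D1:**
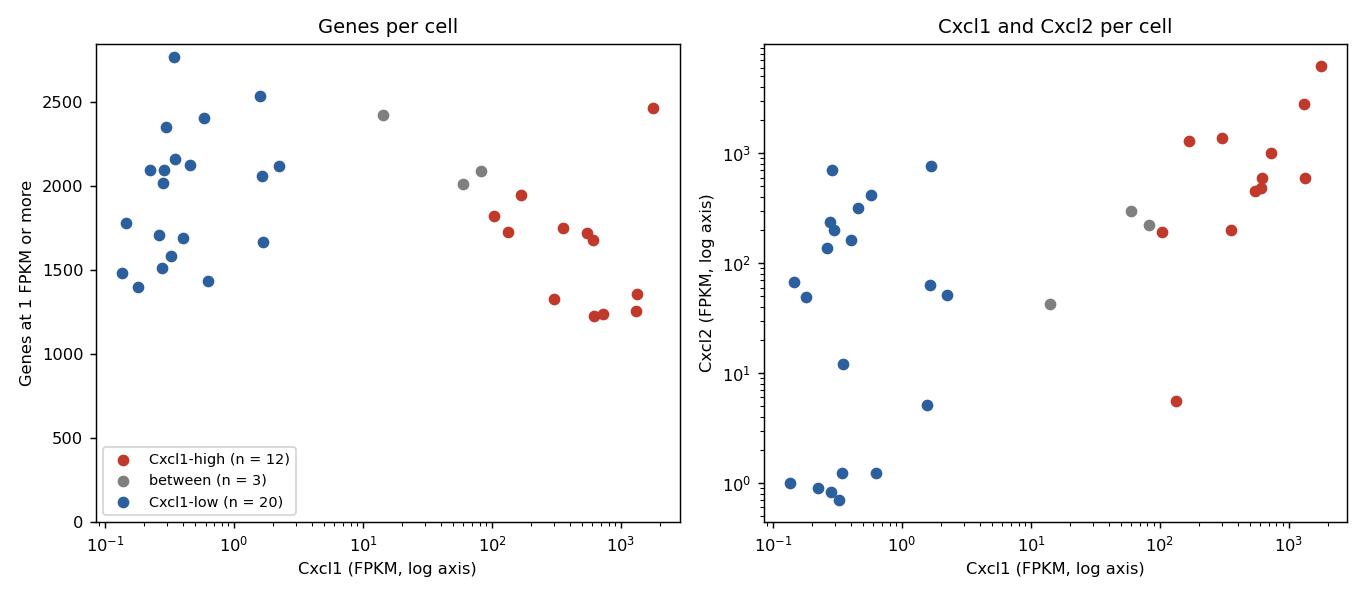
Left, genes at 1 FPKM or more in each cell against its Cxcl1 (log axis); right, Cxcl2 against Cxcl1 (both log axes). Each point is 1 cell. Most Cxcl1-high cells lie at lower gene numbers than the Cxcl1-low median of 2039.5, and all but 1 of them (cell 26, 5.58 FPKM) lie above 100 FPKM of Cxcl2.

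Over all genes, more were lower than higher in Cxcl1-high cells. A gene was measured when it stood at 1 FPKM or more in at least 5 of the 35 cells, and 4369 genes were. Differences are between mean log2(FPKM + 1) values, which understates the change of low genes, and a difference of 2 or more was set as the size to count. By this rule 48 genes (1.1%), Cxcl1 among them, were higher in Cxcl1-high cells and 162 (3.71%) were lower. The median difference of all measured genes was -0.30, with quartiles of -0.84 and 0.24, and 65.2% of them had a lower mean in Cxcl1-high cells. Centred on that median, the counts were 84 higher and 99 lower. A second rule used the share of all pairs of cells, 1 from each side, in which the Cxcl1-high cell had the higher value, its pair share. At a pair share of at least 75%, 24 genes (0.549%) were higher, at 25% or less 109 (2.49%) were lower, and 18 and 57 genes met both rules. Some of the 12 largest higher differences after Cxcl1 belonged to genes outside the lists used below. These were Aup1 (3.92), Rac2 (3.67), Tubb6 (3.56), Nhp2 (3.34) and Id3 (3.07), with pair shares from 66.7% (Id3) to 79.4% (Rac2). A gene could be measured through the cells of 1 side alone, so counts over measured genes describe these cells and support nothing further.

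Cxcl2 stood high in nearly every Cxcl1-high cell and in part of the others. It ran from 5.58 to 6250 FPKM with a median of 595 in Cxcl1-high cells, and from 0.694 to 761 FPKM with a median of 56.9 in Cxcl1-low cells. It was at 100 FPKM or more in 11 of 12 Cxcl1-high, 2 of 3 intermediate and 8 of 20 Cxcl1-low cells, so the sides overlapped. The mean log2 values were 9.08 ± 2.47 and 5.08 ± 3.23 (SD, n = 12 and 20 cells), a difference of 3.99 with a pair share of 86.3%. The exception was cell 26, a shallow cell with Cxcl1 at 133 FPKM and Cxcl2 at 5.58 FPKM. Only 2 Cxcl1-low cells, 15 at 761 FPKM and 21 at 702 FPKM, exceeded the Cxcl1-high median. The difference in Cxcl2 was 6.12 among cells 0 to 19 and 1.94 among cells 20 to 36. Over 35 cells Cxcl2 followed Cxcl1 with a Spearman rho of 0.64 (Pearson r 0.61, and 0.56 without the 2 cells farthest from the Cxcl1 median). Within the 20 Cxcl1-low cells, whose Cxcl1 was near 0, rho was 0.25. These points share libraries of unequal depth.

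Ccl2 did not divide the cells as Cxcl1 did. In Cxcl1-high cells it ran from 0.385 to 2358 FPKM with a median of 1.48, and in Cxcl1-low cells from 0.127 to 2054 FPKM with a median of 1.35. It reached 100 FPKM in 2 of 12 Cxcl1-high cells (8 and 31, at 2358 and 980 FPKM) and in 3 of 20 Cxcl1-low cells (19, 13 and 21, at 2054, 394 and 133 FPKM). The difference of 0.70, with a pair share of 53.8%, turned to -0.03 without cell 8. Ccl7 and Ccl12, genes for chemokines of the same monocyte-drawing group, were also concentrated in a few cells. Ccl12 reached 13135 FPKM in cell 8, 676 in cell 23 and 599 in cell 31, against 414 FPKM in Cxcl1-low cell 5. Ccl7 reached 4168 FPKM in cell 8, 806 in cell 0 and 562 in cell 30, against 654 FPKM in Cxcl1-low cell 13. Their differences of 2.39 for Ccl12 and 2.07 for Ccl7 came down to 1.49 and 1.28 without cell 8. Cell 8 was thus the highest of all Cxcl1-high and Cxcl1-low cells for Ccl2, Ccl7 and Ccl12, at 607 FPKM of Cxcl1.

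**Figure D2:**
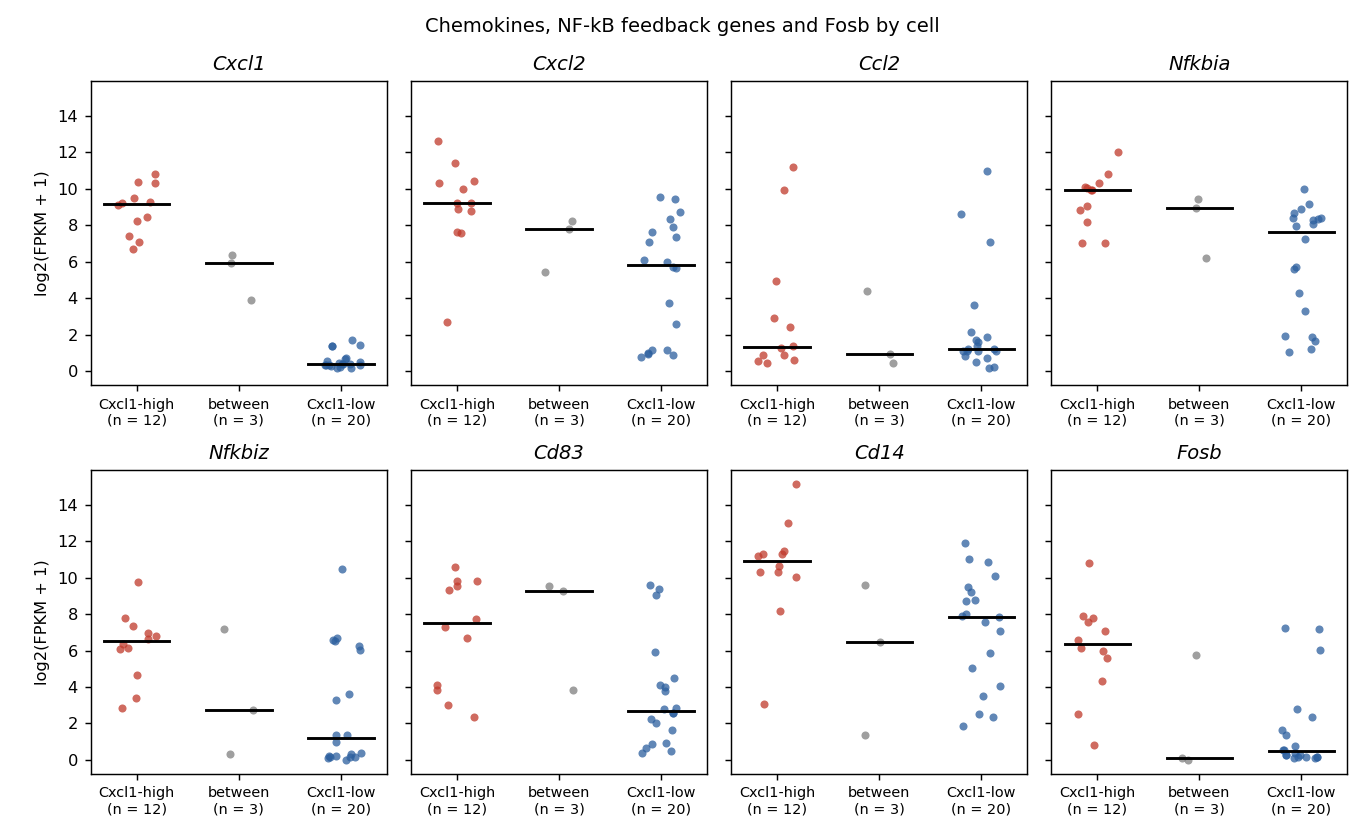
Expression of 8 genes in each cell as log2(FPKM + 1) by side, with 1 point per cell and a bar at the median of the side. Cxcl1 does not overlap, because it chose the sides; Cxcl2, Nfkbia, Nfkbiz, Cd83, Cd14 and Fosb have higher medians in Cxcl1-high cells with overlap, and Ccl2 has medians of 1.48 and 1.35 FPKM.

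Most other chemokine, receptor and cytokine genes were not measured, while Pf4, Ccl6 and Ccl9 were seen in nearly every cell. Of 15 CXC chemokine genes 4 were measured, and beside Cxcl1 and Cxcl2 these were Pf4, for a heparin-binding chemokine (medians 1223 and 352 FPKM, difference 1.11), and Cxcl16, for a membrane-bound chemokine (2.77 and 0.200 FPKM, difference 1.36). Cxcl3, a close relative of Cxcl1 and Cxcl2, stayed below 1 FPKM in every cell of both sides and Cxcl5 was listed at 0. Of 17 CC chemokine genes 8 were measured; Ccl4, for an inflammatory chemokine, had a difference of 1.90, while the abundant Ccl6 and Ccl9 had differences of 0.12 and -0.61 (the sign of Ccl6 turned with cells rescaled). The receptor gene Cxcr2 was listed at 0 in every cell of both sides, and Ccr2 was at 1 FPKM or more in 5 of 12 and 6 of 20 cells. Of 23 genes for inflammatory cytokines and enzymes 5 were measured and 0 differed by 2, beside 1.1% higher and 3.71% lower of all measured genes. Tnf, for the inflammatory cytokine tumour necrosis factor, was at 1 FPKM or more in 6 of 12 Cxcl1-high and 1 of 20 Cxcl1-low cells, up to 69.8 FPKM, with a difference of 1.48. Il1b was seen in 2 of 12 and 4 of 20 cells.

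The list named NF-kB feedback had the largest number of higher genes. It holds inhibitors, NF-kB subunits and other genes linked to NF-kB, so its count does not describe feedback genes alone. Of 41 listed, 29 were measured, and 8 of these (27.6%, beside 1.1% of all measured genes) were higher by 2 or more and 0 lower. The list's median difference was 0.32, beside -0.30 over all measured genes, with 17 members at a higher and 12 at a lower mean in Cxcl1-high cells. The 8 were Nfkbiz, Cd83, Nfkbia, Marcksl1, Zfp36, Ier3, Bcl2a1b and Socs3. Among the 12 at a lower mean were Nfkbib at -1.15 and Tnip2 at -0.60.

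Nfkbia, which encodes the inhibitor that holds NF-kB in the cytoplasm, ran from 129 to 4133 FPKM with a median of 988 in Cxcl1-high cells. In Cxcl1-low cells it ran from 1.05 to 1010 FPKM with a median of 201. It passed 100 FPKM in 12 of 12 Cxcl1-high cells and in 11 of 20 Cxcl1-low cells, and only 1 Cxcl1-low cell, number 18, exceeded the Cxcl1-high median. The means of 9.45 ± 1.49 and 6.01 ± 3.11 gave a difference of 3.44 and a pair share of 84.6%. That difference in Nfkbia was 5.24 among cells 0 to 19 and 1.29 among cells 20 to 36. Among measured genes Nfkbia had the highest rank correlation with Cxcl1 over the 35 cells, at rho 0.70 (Pearson r 0.58, and 0.54 without the 2 cells farthest from the Cxcl1 median). Within the 12 Cxcl1-high cells rho was 0.28. Within the 20 Cxcl1-low cells, whose Cxcl1 was near 0, it was 0.60.

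Nfkbiz, which encodes a nuclear co-factor of NF-kB, ran from 6.07 to 859 FPKM with a median of 89.5 in Cxcl1-high cells. In Cxcl1-low cells it ran from 0 to 1416 FPKM with a median of 1.28. The highest value belonged to a Cxcl1-low cell, number 15, and 8 of 20 Cxcl1-low cells lay above the lowest Cxcl1-high cell. The difference in Nfkbiz was 3.49, and by cell number it went the other way round from Nfkbia, with 1.68 among cells 0 to 19 and 5.39 among cells 20 to 36.

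Cd83, a membrane protein gene of activated antigen-presenting cells, ran from 4.07 to 1500 FPKM with a median of 181 in Cxcl1-high cells and from 0.308 to 782 FPKM with a median of 5.51 in Cxcl1-low cells. The Cxcl1-high cells divided into 8 at 100 FPKM or more and 4 below 20 FPKM (cells 2, 17, 26 and 30). Cells 14 and 36, of the 3 intermediate cells, stood at 752 and 623 FPKM. The difference in Cd83 was 3.48, and it was 2.18 without the cells under 1500 genes.

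Zfp36, for a protein that shortens the life of inflammatory messenger RNAs, was seen in all 12 Cxcl1-high cells and in 19 of 20 Cxcl1-low cells, with medians of 376 and 71.0 FPKM and a difference of 2.24. The difference in Zfp36 was 1.49 without the cells under 1500 genes. Socs3, for a suppressor of cytokine signalling, was seen in 7 of 12 and 4 of 20 cells. Tnfaip3, for an enzyme that ends NF-kB signalling, differed by -0.04, a sign that turned with cells rescaled, and the NF-kB subunit genes Nfkb1, Nfkb2, Rela and Rel differed by 0.55, -0.46, -0.67 and 0.09.

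Among 39 genes of Toll-like receptor sensing, 22 were measured. Of these 1 was higher and 1 lower by 2 or more (4.55% each, beside 1.1% and 3.71% of all measured genes). The list's median difference was -0.25, and 0.05 after centring on the all-gene median. The higher one was Cd14. It ran from 7.48 to 36497 FPKM with a median of 1955 in Cxcl1-high cells, and from 2.67 to 3788 FPKM with a median of 230 in Cxcl1-low cells. Cell 2, a shallow cell with the highest Cxcl1, held the highest value and cell 25, with the lowest Cxcl1 of the Cxcl1-high cells, the lowest. The difference in Cd14 of 3.31 was 5.54 among cells 0 to 19 and 0.76 among cells 20 to 36. The lower one, Ifngr2, for a chain of the interferon gamma receptor, had medians of 0.0427 and 3.92 FPKM, a difference of -2.38 and a pair share of 13.5%. Tlr4 and Myd88, for the receptor and adaptor that work with Cd14, were seen in few cells and differed by 0.34 and 0.19.

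Immediate early genes were also higher as a group. Of 39 listed, 34 were measured, 6 of them (17.6%, beside 1.1% of all measured genes) were higher by 2 or more, 0 were lower, and the median difference was 0.98. The 6 were Fosb, Mcl1, Atf4, Fos, Dusp1 and Ier2.

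Fosb, an AP-1 subunit gene, had the largest difference of all genes after Cxcl1. It ran from 0.789 to 1806 FPKM with a median of 81.8 in Cxcl1-high cells, and from 0.0688 to 148 FPKM with a median of 0.380 in Cxcl1-low cells. It was at 1 FPKM or more in 11 of 12 Cxcl1-high cells and 7 of 20 Cxcl1-low cells, with cell 25 as the exception on the high side. The means of 6.09 ± 2.62 and 1.62 ± 2.37 gave a difference of 4.46 and a pair share of 89.2%. The Fosb difference was 5.46 among cells 0 to 19 and 3.89 among cells 20 to 36.

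Fos itself was high on both sides, with medians of 649 and 163 FPKM and a difference of 2.46. Dusp1, for a phosphatase that turns off stress kinases, had medians of 979 and 391 FPKM and a difference of 2.35. That difference in Dusp1 was 3.98 among cells 0 to 19 and 0.75 among cells 20 to 36. Mcl1, for a short-lived protein that keeps cells alive, had medians of 75.4 and 9.93 FPKM, a difference of 2.71, a pair share of 84.2% and a rho with Cxcl1 of 0.64. The Mcl1 difference was nearly the same by cell number, at 2.81 and 2.78. Dusp3, for another phosphatase and outside the lists, ran from 5.29 to 587 FPKM in Cxcl1-high cells and from 0.0201 to 82.2 FPKM in Cxcl1-low cells, and no Cxcl1-low cell exceeded the Cxcl1-high median of 138 FPKM. The abundant Atf3 and Cebpb, both for stress-linked transcription factors, differed by 0.83 and -0.39, and Jun, the partner of Fos, by 0.20. Heat shock genes had a lower median difference than the immediate early genes, at -0.55, or -0.25 after centring on the all-gene median. Of 18 listed, 13 were measured and 0 were higher by 2 or more, which says little beside 1.1% of all measured genes. Hsp90aa1, for a cytosolic chaperone, was lower by 2.10, which is 7.69% of the list beside 3.71% of all. In all, 10 heat shock genes had a lower mean in Cxcl1-high cells. The 3 with a higher mean were Hsp90b1 (1.61), Hspa5 (1.47) and Hmox1 (0.78).

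The genes that stood high were not high in the same measure in every Cxcl1-high cell. Cxcl2, Nfkbia, Nfkbiz, Cd83, Cd14, Fosb, Dusp1 and Mcl1 were each compared with their own median over the Cxcl1-high and Cxcl1-low cells. The 8 genes were chosen for their difference, so a gap between the sides is built in, and the count is given for the spread inside each side. Cells 0, 8 and 34 were above the median for all 8, whereas cells 25, 30 and 26 were above it for 3, 4 and 5. In the Cxcl1-low cells the count ran from 0 to 6 with a median of 2, and 11 of 20 were above the median for 2 or fewer. The highest of them was cell 15, a shallow cell, at 6 of 8. Cell 15 had 1.67 FPKM of Cxcl1, 761 of Cxcl2, 1416 of Nfkbiz, 782 of Cd83 and 4406 of Fos. Cxcl1-low cells 18 and 19 followed at 5 of 8, as many as Cxcl1-high cell 26 and more than cells 25 and 30. Of the intermediate cells, number 36 reached 7, number 14 reached 4 and number 24 reached 0.

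**Figure D3:**
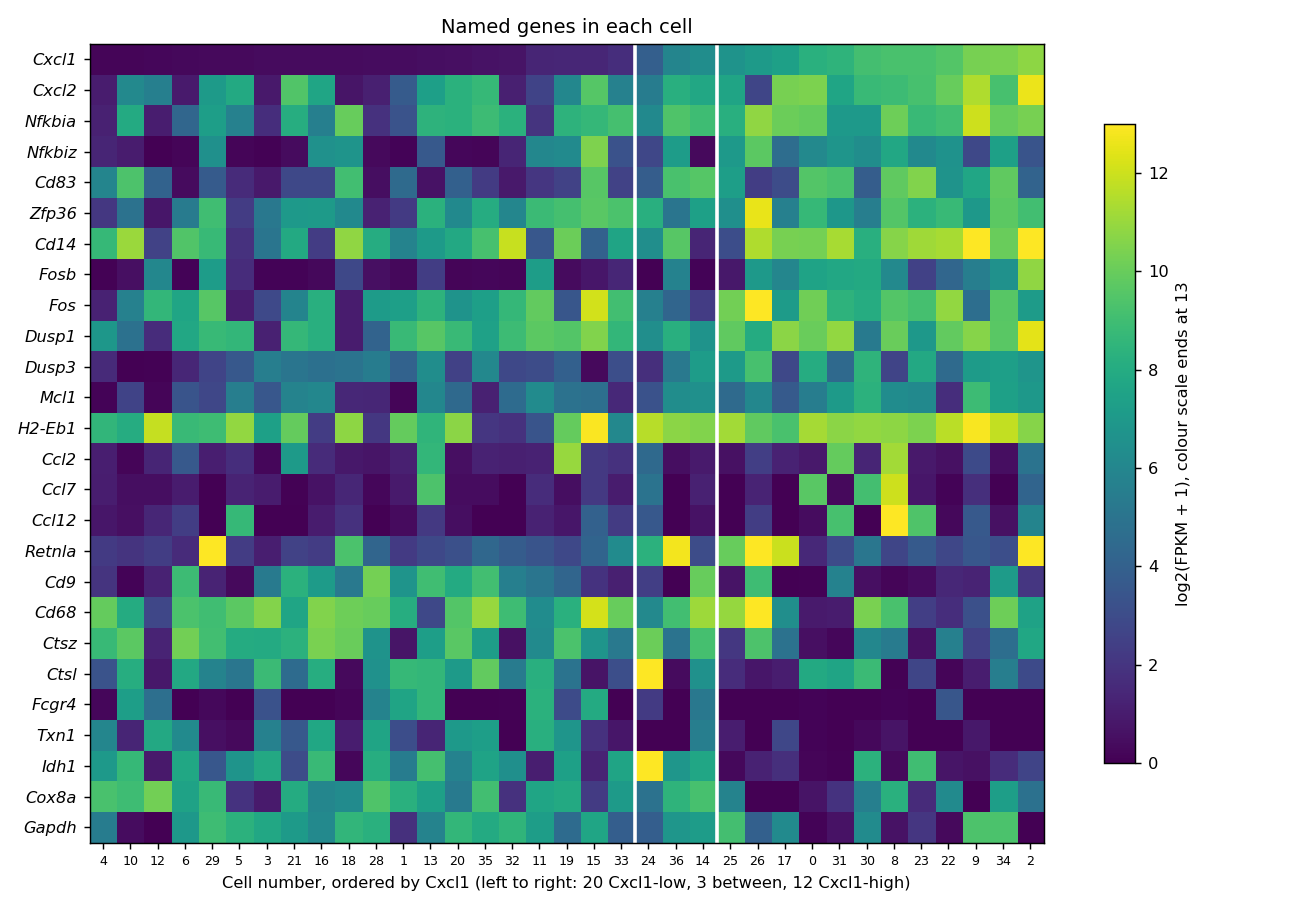
Log2(FPKM + 1) of 26 named genes (rows) in 35 cells (columns, ordered by Cxcl1 from left to right, white lines between the 20 Cxcl1-low, 3 intermediate and 12 Cxcl1-high cells). The columns of cells 0, 8 and 34 are bright for the 8 co-occurring genes, cell 15 stands out among Cxcl1-low cells, and Txn1 is dark in most Cxcl1-high columns.

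MHC class II genes, which present peptides to helper T cells, had a higher mean in Cxcl1-high cells for each of the 8 measured of 12 listed, also with cells rescaled or centred. Of these 1 (12.5%, beside 1.1% of all measured genes) differed by 2 or more, and the list's median difference was 1.03. H2-Eb1, for a beta chain, ran from 613 to 7379 FPKM with a median of 1832 in Cxcl1-high cells. In Cxcl1-low cells it ran from 2.60 to 7726 FPKM with a median of 410, so the sides differed in the lower end and not in the top. The spread between cells was 0.93 on the log2 scale in Cxcl1-high and 3.56 in Cxcl1-low cells, around means of 10.9 and 7.75. The difference in H2-Eb1 of 3.20 was 2.25 among cells 0 to 19 and 4.98 among cells 20 to 36. H2-Ab1, H2-Aa and Cd74, for the other chains and their chaperone, differed by 1.95, 1.84 and 1.65 and were seen in every cell of both sides. H2-DMa, H2-DMb1 and Ciita differed by 0.17, 0.40 and 0.21 in the mean, but their medians were lower in Cxcl1-high cells. Their pair shares were 51.3%, 50.6% and 32.9%, against 55.0% (Cd86) to 81.3% (H2-Eb1) for the other measured members. The median over the MHC class II list was 0.83 among cells 0 to 19 and 3.22 among cells 20 to 36. Of the dendritic cell genes Flt3, Xcr1, Clec9a and Ccr7 were listed at 0 in every cell of both sides and Zbtb46 stayed below 1 FPKM. Batf3, on the same list, was at 1 FPKM or more in 5 of 12 and 9 of 20 cells, up to 415 and 843 FPKM, and Cd209a in 0 of 12 and 3 of 20, up to 531 FPKM. In all, 0 of 12 and 0 of 20 cells held 3 genes of that list.

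Genes of the CD206 resident population, the vessel-near macrophages with the mannose receptor Mrc1, were measured for 18 of 22, with 2 (11.1%, beside 1.1% of all measured genes) higher by 2 or more, 0 lower and a median difference of 0.32. Of the 18 measured, 13 had a higher and 5 a lower mean in Cxcl1-high cells. The 5 were Sepp1 (-0.58), Igf1 (-0.51), Gas6 (-0.48), Clec10a (-0.23) and Ltc4s (-0.14). Lyve1, not measured, was at 1 FPKM or more in 2 of 12 and 1 of 20 cells, and Timd4 stayed below 1 FPKM. Mrc1 had medians of 331 and 71.8 FPKM and differed by 1.65. F13a1, for a clotting factor chain, was at 10 FPKM or more in 7 of 12 and 5 of 20 cells and differed by 2.60. Cxcl1-low cell 18 had 647 FPKM and intermediate cell 24 had 326 FPKM of Retnla, a gene of alternative activation. Retnla was at 100 FPKM or more in 4 of 12 Cxcl1-high, 2 of 20 Cxcl1-low and 2 of 3 intermediate cells. It stood above 1000 FPKM in Cxcl1-high cells 26, 2, 17 and 25, at 25703, 20706, 4005 and 1021 FPKM, in Cxcl1-low cell 29 at 21485 FPKM and in the intermediate cell 36 at 6913 FPKM. Its difference of 2.50 came to 0.09 without the shallow cells, which include cells 2, 17 and 26. Mt2, for a metal-binding metallothionein, was at 100 FPKM or more in 6 of 12 and 3 of 20 cells and differed by 2.40.

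Genes of the CD9 lipid-associated population, the lysosome-rich macrophages of obese fat, were lower as a group. Of 21 listed, 19 were measured, 5 of them (26.3%, beside 3.71% of all measured genes) were lower by 2 or more, 0 were higher, and the median difference was -1.43. Cd9 itself, a tetraspanin gene, ran from 0 to 495 FPKM with a median of 1.01 in Cxcl1-high cells, and from 0.0983 to 1241 FPKM with a median of 38.0 in Cxcl1-low cells. It reached 10 FPKM in 3 of 12 Cxcl1-high cells (26, 34 and 31) and 13 of 20 Cxcl1-low cells. Cd9 differed by -2.66 with a pair share of 27.5%.

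The other 4 lower members of the CD9 list were Ctsl, Atp6v0d2, Cstb and Lgals3. Ctsl, for a lysosomal protease, had medians of 3.83 and 74.9 FPKM and differed by -2.45. Lgals3, for a sugar-binding lectin, had medians of 56.0 and 508 FPKM and differed by -2.06. Trem2, for a lipid receptor, was seen in 5 of 12 and 15 of 20 cells and differed by -1.61. Apoe, Cd36, Lpl and Fabp4, for lipid carriers and uptake, differed by -0.64, -0.53, 0.31 and 0.44.

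Of 18 genes of the Ly6C monocyte-like population 6 were measured. By 2 or more, 0 were higher and 1 (16.7%, beside 3.71% of all measured genes) was lower. Ifitm3, for an antiviral membrane protein, was seen in 11 of 12 and 18 of 20 cells at medians of 442 and 248 FPKM and differed by 0.80. S100a4, for a calcium-binding protein, was seen in 7 of 12 and 13 of 20 cells and differed by -0.30. Ly6c2, Plac8, Vcan and Chil3 stayed below 1 FPKM or were listed at 0 in all cells of both sides but 1, a Cxcl1-high cell with Ly6c2 at 2.22 FPKM. Fcgr4, an Fc receptor gene, was at 1 FPKM or more in 1 of 12 and 9 of 20 cells and differed by -2.55. That difference in Fcgr4 was -3.88 among cells 0 to 19 and -0.39 among cells 20 to 36.

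**Figure D4:**
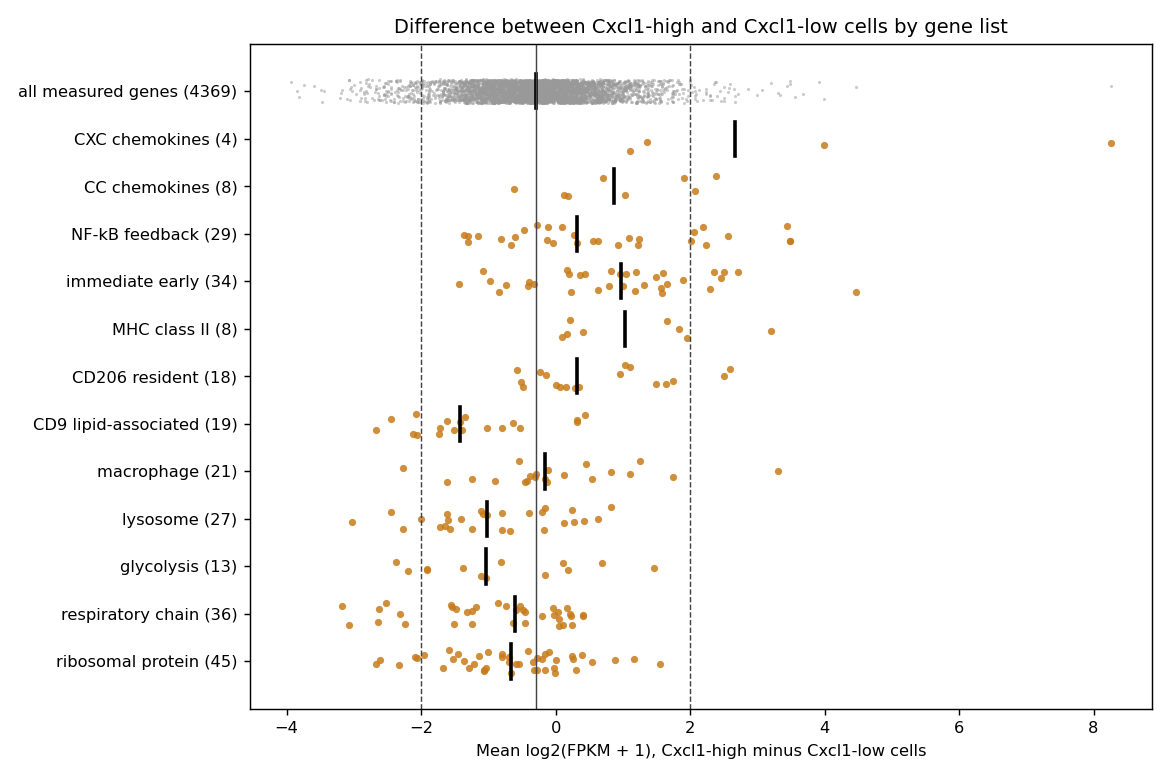
Difference of mean log2(FPKM + 1), Cxcl1-high minus Cxcl1-low cells, for each measured gene of 12 lists and for all 4369 measured genes (top row); black bars are medians, the solid line is the all-gene median of -0.30 and dashed lines mark 2 and -2. NF-kB feedback and immediate early genes reach past 2 and none reaches -2, while CD9, lysosome, glycolysis and respiratory chain genes reach past -2 and none reaches 2.

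Both sides carried transcripts of the macrophage list. All 21 of its genes were measured, and 1 was higher and 1 lower by 2 or more (4.76% each, beside 1.1% and 3.71% of all measured genes). A higher mean was seen for 8 and a lower for 13. At least 3 were held by 12 of 12 and 20 of 20 cells, a bar that Tyrobp, Fcer1g and Ctss, seen in every cell, meet alone. Others were seen in part of the cells: Mertk in 0 of 12 and 5 of 20, Fcgr1 in 5 and 7, Spi1 in 5 and 15, and Itgam in 6 and 10. C1qb, of the complement C1q complex, had medians of 4861 and 3119 FPKM, and Tyrobp, for a signalling adaptor, 1643 and 1796 FPKM. The higher gene was Cd14. The lower one was Cd68, for a lysosomal membrane protein, with medians of 130 and 675 FPKM and 100 FPKM or more in 6 of 12 and 17 of 20 cells. Its difference of -2.27 was -0.54 without the cells under 1500 genes, which are 5 of the Cxcl1-high and 3 of the Cxcl1-low cells. Neutrophils and fibroblasts also make Cxcl1, and their genes were at or near 0 in both sides. None of the 11 neutrophil genes in the deposited values was measured, and S100a9, Cxcr2 and Retnlg were listed at 0. The summed neutrophil genes ran from 0 to 501 FPKM in Cxcl1-high cells, where the 501 was Ngp in 1 cell, and from 0 to 55.5 FPKM in Cxcl1-low cells. None of the 10 fibroblast genes was measured, and Col1a1, Col3a1 and Pdgfra stayed below 1 FPKM. Their sum ran from 0 to 604 FPKM in Cxcl1-high cells, where the 604 was Dpt in 1 cell, and from 0 to 10.2 FPKM in Cxcl1-low cells. No cell of either side held 3 genes of the neutrophil or the fibroblast list.

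Lists of lysosome and energy metabolism genes had low medians. Of 28 lysosome genes 27 were measured, 3 (11.1%, beside 3.71% of all measured genes) were lower by 2 or more, 0 were higher, and the median difference was -1.01. Ctsz, for a lysosomal protease, ran from 0.185 to 660 FPKM with a median of 26.6 in Cxcl1-high cells, and from 0.499 to 1321 FPKM with a median of 251 in Cxcl1-low cells. It differed by -3.03, at -3.22 among cells 0 to 19 and -2.60 among cells 20 to 36 for Ctsz.

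Of 36 respiratory chain genes, all measured, 7 (19.4%, beside 3.71% of all measured genes) were lower by 2 or more and the median difference was -0.61. Cox8a, for a subunit of cytochrome c oxidase, had medians of 15.5 and 191 FPKM and differed by -3.18, and Sdhb, for a subunit of succinate dehydrogenase, by -3.07. The abundant Cox6a1, for another oxidase subunit, differed by 0.41. Of 13 measured glycolysis genes 2 (15.4%, beside 3.71%), Aldoa and Gapdh, were lower by 2.38 and 2.20, and the median difference was -1.03. Of 45 ribosomal protein genes 5 (11.1%, beside 3.71% of all measured genes) were lower by 2 or more, led by Rpl14 at -2.68, and the median difference was -0.67. These lists had medians below the all-gene median of -0.30, and the lower number of genes seen in Cxcl1-high cells moved with them. Its part in these differences was not tested.

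Txn1, for the redox protein thioredoxin, had the lowest rank correlation with Cxcl1 of all measured genes. It was at 1 FPKM or more in 2 of 12 Cxcl1-high and 16 of 20 Cxcl1-low cells. In Cxcl1-high cells it ran from 0 to 5.91 FPKM with a median of 0.0386, and in Cxcl1-low cells from 0 to 296 FPKM with a median of 31.1. It differed by -3.74 with a pair share of 10.4% and a rho of -0.61 over 35 cells. The Txn1 difference was alike by cell number, at -3.54 and -3.64. The differences larger in size on the lower side were those of Bcap31, for an endoplasmic reticulum protein, at -3.94, Myl6, for a myosin light chain, at -3.85, and Ndufb11, of respiratory complex I, at -3.82. Bcap31 reached 9.93 FPKM at most in Cxcl1-high cells and 1686 FPKM in Cxcl1-low cells. Next in size after Txn1 came Mrps21 (-3.59), Idh1 (-3.49), Ndufa5 (-3.48), Atp6v1b2 (-3.45), Smdt1 (-3.20), Gpx4 (-3.19) and, after Cox8a, Asah1 (-3.11).

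**Figure D5:**
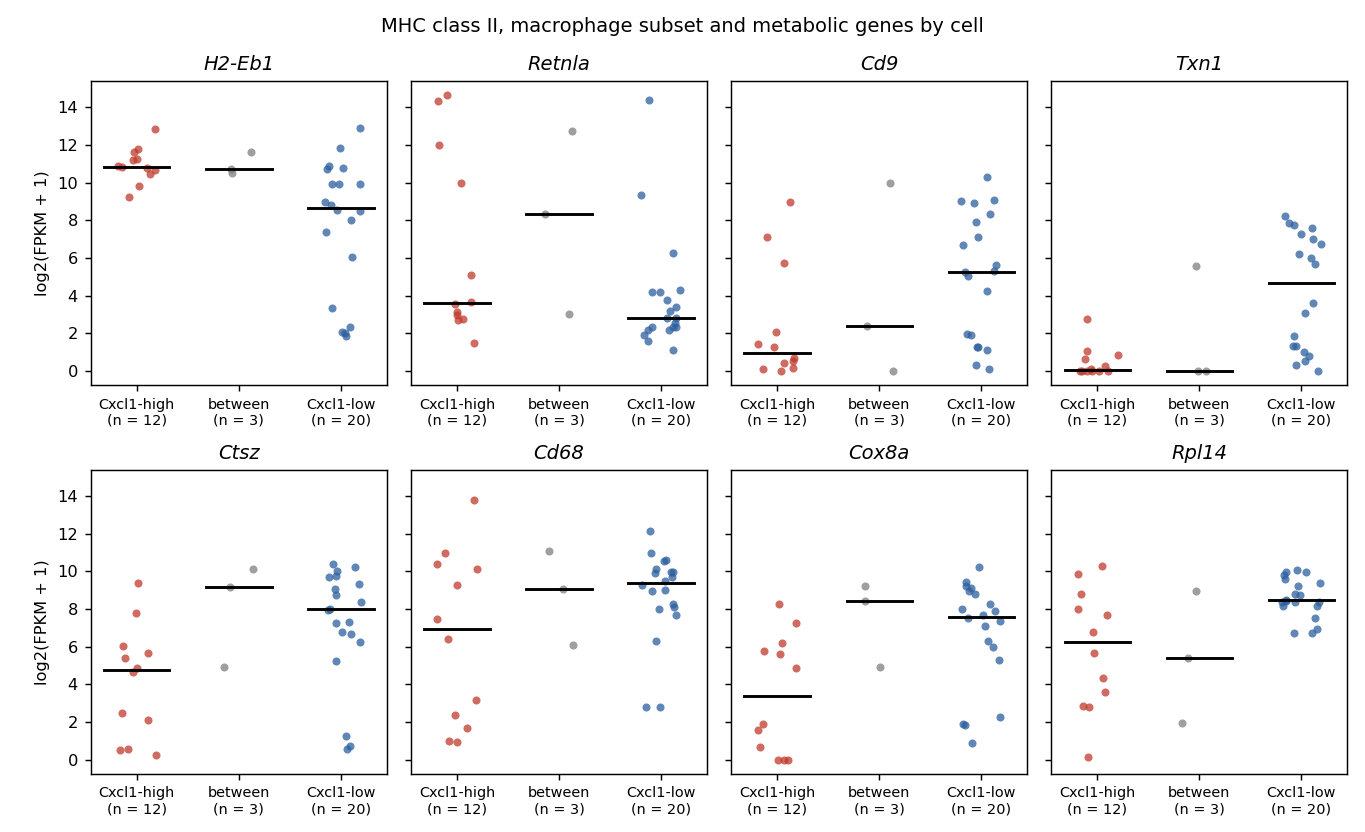
Expression of 8 genes in each cell as log2(FPKM + 1) by side, with 1 point per cell and a bar at the median of the side. H2-Eb1 runs from 613 FPKM up in Cxcl1-high cells and is spread widely in Cxcl1-low cells, Retnla is above 1000 FPKM in 4 Cxcl1-high cells and in 1 Cxcl1-low cell, and Cd9, Txn1, Ctsz, Cd68, Cox8a and Rpl14 have lower medians in Cxcl1-high cells.

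The genes most like Cxcl1 over the 35 cells were found by Spearman rho over all measured genes. After Nfkbia (0.70), Cxcl2 (0.64) and Mcl1 (0.64) came Dusp1 (0.57), Dusp3 (0.56), Nfkbiz (0.55), Zfp36 (0.55), Fosb (0.53), Marcksl1 (0.50) and Tm9sf3 (0.49). At the other end stood Txn1 (-0.61), Mbp (-0.59), 2410015M20Rik (-0.55), Lats2 (-0.52) and Galc (-0.52). The same cells that chose the sides give these values, so they repeat the comparison in another form. The ranks include the Cxcl1-low cells, whose order rests on values of 0.136 to 2.24 FPKM. Those above 1 FPKM, cells 11, 15, 19 and 33, had 1 fragment worth 3.99, 4.79, 2.20 and 2.81 times the median over cells. The Cxcl1-low median of that worth was 0.99, so the order near 0 went with depth. Its part in rho was not tested. Within the 20 Cxcl1-low cells rho was 0.60 for Nfkbia and 0.61 for Dusp1. Within the 12 Cxcl1-high cells rho with Cxcl1 was 0.60 for Cxcl2, 0.50 for Mcl1 and 0.28 for Nfkbia. It was 0.17 for Dusp1, 0.16 for Fosb and -0.34 for Nfkbiz.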

How the data were processed

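The 37 single-cell libraries were deposited as FPKM, which the authors made with STAR and Cuffnorm on mm9, per the submitters' processing notes; the sources used here give no versions or annotation. FPKM were used as deposited on the log2(FPKM + 1) scale (pandas 2.3.3, numpy 2.4.6, scipy 1.17.1). Sides were set by Cxcl1, and the members, gene lists (30, of which 534 of 540 genes matched) and choices were made with earlier results of these data known. Gapdh was at 0 in 2 cells and Rpl3 in 3, so a 0 is given as listed at 0. Depth is unknown. The worth of 1 fragment, estimated from values between 0.005 and 1 FPKM, marks cells above 4 times the median as shallow. Named genes were the markers Cxcl1, Cxcl2 and Ccl2, up to 4 members per list past a difference of 2, up to 2 abundant members that differed by less than 1, the 12 largest differences each way, and the 10 highest and 5 lowest rho with Cxcl1. Other list members are named beside their list's counts. Scripts were tested on simulated data. Alternatives changed the pseudocount, filter, thresholds, scaling and cells. The libraries have no known replicates, and near-identical gene copies may share reads.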

Additional observations from a re-analysis of the deposited data

Results flagged for a closer look

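Cxcl1 was also high in the cells left out of both sides. Cell 7 had 1342 FPKM and cell 27 had 2077 FPKM, above the Cxcl1-low cells and, for cell 27, above every Cxcl1-high cell. Their other chemokine genes differed from those of the Cxcl1-high cells. Cxcl2 was at 12.6 FPKM in cell 7 and 0.679 FPKM in cell 27, below the Cxcl1-high median of 595 FPKM, and Ccl2 at 10159 and 655 FPKM, above the Cxcl1-high median of 1.48 FPKM. The difference was not tested.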

How the results depend on the processing

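The count of genes past a difference of 2 depended on the processing, and so did the size of the difference for some named genes. In place of 48 higher and 162 lower genes, a pseudocount of 0.1 FPKM gave 130 and 494, a pseudocount of 10 FPKM gave 17 and 17, and medians in place of means gave 92 and 307. Counting every cell from 10 FPKM of Cxcl1 as Cxcl1-high gave 30 and 95, a difference of 3 as the limit gave 13 and 18, and centring on the all-gene median, chosen after seeing the data, gave 84 and 99. Cells 0 to 19 alone gave 213 and 300, and cells 20 to 36 alone 110 and 420. Keeping cells 7 and 27 gave 101 lower genes, the rule on pairs of cells gave 24 higher genes, and leaving out the cells under 1500 genes, also chosen after seeing the data, gave 141 higher genes. Fewer cells make a mean difference of 2 more frequent by construction. Leaving out each cell in turn gave 45 to 62 higher and 150 to 185 lower genes and a Cxcl2 difference of 3.67 to 4.57. The Ccl2 difference ran from -0.033 (without cell 8) to 1.15 (without cell 19). The list medians of NF-kB feedback (0.19 to 0.58), immediate early (0.87 to 1.16), CD9 (-1.69 to -1.21), CD206 (0.20 to 0.64) and MHC class II genes (0.77 to 1.26) kept their sign, as they did under the other alternatives run, and the MHC class II median was 3.22 in cells 20 to 36. For 86 named genes under 16 alternatives, 1374 of 1376 values moved by less than 1 SD between cells and 2, both of Id3, moved further. That SD is wide, at 2.64 for Nfkbia and 3.00 for Cd14, so few values could pass it and the tally does not show stable differences. The smaller differences of Cd14, Nfkbia and Dusp1 among cells 20 to 36, given above, stayed within it. In 81 of the values, of 25 genes that each differed by less than 1, the sign turned. No paired analysis was possible because all cells share 1 group and no label pairs them. Cells are not replicates, so none of these ranges stands for the spread between animals.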

Other observations

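Inside the Cxcl1-high side, the genes that stood high together did not share 1 order. Of 19 gene pairs, each ranked within the Cxcl1-high cells, the Cxcl1-low cells and all 35 cells, the pair of Cxcl2 and Nfkbiz had the largest rho in size. Over the 12 Cxcl1-high cells it was -0.85 (Pearson r -0.86, and -0.74 without the 2 cells farthest from the Cxcl2 median), over the 20 Cxcl1-low cells 0.15 and over all 35 cells 0.29. Nfkbiz was at 859 FPKM in cell 26, where Cxcl2 was at 5.58 FPKM, and at 9.39 and 6.07 FPKM in cells 2 and 9, where Cxcl2 was at 6250 and 2782 FPKM. Cells 2 and 26 were shallow. The pair was singled out after its values were seen, and cells are not replicates.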
